A study of Mus musculus with 4 samples.

Results

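The Egr and Nr4a genes are 7 activity-induced transcription factor genes of the mouse: Egr1, Egr2, Egr3 and Egr4, and Nr4a1, Nr4a2 and Nr4a3. They were taken by family membership and not by their values, by matching the Ensembl identifiers of the deposited tables to mouse symbols. All 7 were found among 37620 identifiers, and all 7 were among the 13400 genes that reached 1 CPM, a count scaled to library size, in 2 or more of the 4 libraries. Nr4a2 met that minimum only through the D1 libraries, so a difference between the cell types was built into its inclusion.

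Egr proteins are zinc finger factors that bind GC-rich promoter sites, and Nr4a proteins are orphan nuclear receptors that act without a known hormone ligand. Neuronal firing, calcium entry and cyclic AMP switch on most of these genes within minutes, through factors already present in the cell such as SRF with its Elk partners, CREB and MEF2. In striatal medium spiny neurons, dopamine and glutamate inputs drive them, which makes their transcripts a common readout of recent activity in the direct and indirect pathways.

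The study compared sorted striatal neurons of BACHD mice, a Huntington's disease model with a full-length mutant huntingtin BAC transgene carrying 97 glutamines under its own regulatory sequences, with those of wild-type (WT) littermates. Hemizygous BACHD mice were crossed to Drd1-EGFP or Drd2-EGFP BAC reporter mice, and GFP-positive cells were sorted as direct-pathway (D1) or indirect-pathway (D2) medium spiny neurons. The labels' extraction text speaks of flash-frozen tissue and the design text of sorted cells, so the handling before RNA extraction, which bears on genes induced within minutes, is not clear. All mice were male, on the FVB/NJ background and 5 to 6 months old, and cells of both genotypes carried a reporter BAC. Each pairing of cell type and genotype was 1 group, 4 in all, with 1 library each, made from cells of 4 pooled animals at 150000 cells per animal. The D1 and D2 groups therefore also differ in reporter line, and the BACHD genotype is carried in every cell type of the animal.

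The libraries held 41325647 to 44523622 estimated counts, and 3 counts corresponded to 0.0674 to 0.0726 CPM. Mitochondrially encoded genes took 5.87% of counts in D1 WT and 8.03% to 9.34% in the other libraries. Drd1 stood at 914 and 816.5 CPM in the D1 libraries and at 18.4 and 13.3 CPM in the D2 libraries (WT, then BACHD). Drd2 stood at 20.2 and 20.4 CPM in the D1 and at 2094 and 2033 CPM in the D2 libraries, so the sorts carried their labelled receptors. The D1 BACHD library stood apart in 8 markers of cortical glutamatergic neurons, whose summed level was 29.8 CPM (WT) and 145.2 CPM (BACHD) among D1 cells, against 3.27 and 5.53 CPM among D2 cells. No group had a replicate pool, so ratios between libraries carry counting intervals only, and PCR copies and differences between pools are not in them.

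Because these genes share signal-responsive control, the 250 bases before a transcription start are shown for the 5 members with an entry in the RefSeq promoter table (GRCm38.p6). Capitals mark matches, on either strand, to the cyclic AMP response element core TGACG, the CArG box bound by SRF, the Egr site GCGNGGGCG and the Ets core CCGGAA. For Egr2, which had 5 annotated starts, the window of the first of 3 neighbouring starts is shown.
Egr2, chr10:67537619-67537868, plus strand: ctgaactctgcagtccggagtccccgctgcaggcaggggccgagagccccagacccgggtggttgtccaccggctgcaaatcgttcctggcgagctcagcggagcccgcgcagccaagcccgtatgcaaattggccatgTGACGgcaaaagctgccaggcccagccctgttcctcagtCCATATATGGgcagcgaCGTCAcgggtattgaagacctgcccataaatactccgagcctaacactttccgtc
Egr4, chr6:85513590-85513839, minus strand: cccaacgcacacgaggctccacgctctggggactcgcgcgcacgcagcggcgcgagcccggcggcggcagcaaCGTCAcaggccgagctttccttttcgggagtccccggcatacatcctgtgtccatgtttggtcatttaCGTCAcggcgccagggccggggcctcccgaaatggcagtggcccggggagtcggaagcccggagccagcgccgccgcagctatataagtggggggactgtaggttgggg
Nr4a1, chr15:101266596-101266845, plus strand: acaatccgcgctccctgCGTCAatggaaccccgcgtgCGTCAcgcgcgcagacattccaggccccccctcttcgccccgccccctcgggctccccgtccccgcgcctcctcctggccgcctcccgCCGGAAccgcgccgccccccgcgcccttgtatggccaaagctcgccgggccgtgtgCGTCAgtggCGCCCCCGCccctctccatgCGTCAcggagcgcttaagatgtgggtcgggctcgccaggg
Nr4a2, chr2:57124004-57124253, minus strand: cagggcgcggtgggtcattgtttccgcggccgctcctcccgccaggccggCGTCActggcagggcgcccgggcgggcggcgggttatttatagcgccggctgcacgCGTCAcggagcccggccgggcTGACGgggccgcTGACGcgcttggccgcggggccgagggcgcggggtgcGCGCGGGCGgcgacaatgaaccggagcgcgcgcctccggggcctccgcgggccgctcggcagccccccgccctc
Nr4a3, chr4:48045055-48045304, plus strand: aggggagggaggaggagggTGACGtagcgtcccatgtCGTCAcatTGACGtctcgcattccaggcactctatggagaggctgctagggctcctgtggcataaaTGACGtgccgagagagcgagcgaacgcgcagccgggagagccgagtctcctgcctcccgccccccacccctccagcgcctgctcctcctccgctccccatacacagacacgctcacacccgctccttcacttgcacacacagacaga

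The core TGACG had 4 matches each in the Nr4a1, Nr4a2 and Nr4a3 windows and 2 each in the Egr4 and Egr2 windows shown. It occurred in 17.8% of all 32851 windows of the same length. The CArG box, present in 1.47% of windows, matched in Egr2, starting 72 bases before the transcription start, and 55 bases before that start lay a TGACG match. The Egr site GCGNGGGCG, present in 4.70% of windows, matched once in Nr4a1 and once in Nr4a2. Among the windows shown, the Ets core CCGGAA (12.03% of windows) matched in Nr4a1, and an Egr2 window not shown held 3 matches. The shares over all windows are not matched for GC content. The palindromic element TGACGTCA (1.55% of windows) and the Nr4a monomer site AAAGGTCA (1.34%) matched in none of the windows shown. These matches describe the letters of the windows and not binding.

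Per length of transcript, the order of the genes was the same in the 4 libraries. In FPKM, the length-scaled unit the authors deposited, Egr1 was highest, followed by Nr4a1, Egr4, Egr3, Egr2, Nr4a3 and Nr4a2. Egr1 stood at 190.1, 198.9, 276.7 and 206.5 FPKM, where values in lists of 4 here and below run D1 before D2 and, within each, WT before BACHD. Nr4a1 stood at 97.8, 116.6, 184.3 and 106.1 FPKM. Egr2 and Nr4a3 were neighbours whose counting intervals overlapped in D1 BACHD, and no other pair of neighbours overlapped in any library. Egr1 made up 73.1% to 77.6% of the summed Egr FPKM and Nr4a1 89.2% to 95.3% of the summed Nr4a FPKM, so the make-up of each family changed little across the libraries while its total did. The summed Egr level was 253.4, 272.2, 374.9 and 265.9 FPKM, and the summed Nr4a level was 106.6, 130.7, 193.5 and 112.1 FPKM.

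Among the Egr genes, levels of each gene across libraries are given as CPM scaled by TMM. Egr1 (ENSMUSG00000038418, chromosome 18, GRCm38), also called Zif268 and the most widely used marker of neuronal activity in the family, stood at 568.6, 597.3, 868.5 and 647.9 CPM. Egr2 (ENSMUSG00000037868, chromosome 10), known as Krox20 and required for myelination by Schwann cells, stood at 27.3, 32.8, 66.7 and 32.1 CPM. The D2 WT library was the high one for both genes, and for Egr2 the counting intervals of D1 BACHD and D2 BACHD overlapped. Egr3 (ENSMUSG00000033730, chromosome 14), which is needed for muscle spindle development, stood at 26.6, 25.5, 39.9 and 20.7 CPM. Egr4 (ENSMUSG00000071341, chromosome 6), the most divergent family member, stood at 70.5, 89.2, 103.1 and 73.7 CPM. D2 WT was again highest for both, but the lowest library was D2 BACHD for Egr3 and D1 WT for Egr4, the latter with an interval that overlapped that of D2 BACHD.

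Among the Nr4a genes, Nr4a1 (ENSMUSG00000023034, chromosome 15), known as Nur77 and induced in striatum by blockers of the dopamine D2 receptor, stood at 235.9, 282.6, 467.1 and 268.4 CPM. Nr4a3 (ENSMUSG00000028341, chromosome 4), known as Nor1, stood at 41.7, 59.7, 47.7 and 30.8 CPM. Nr4a1 was highest in D2 WT, whereas Nr4a3 was highest in D1 BACHD and lowest in D2 BACHD. Nr4a2 (ENSMUSG00000026826, chromosome 2), known as Nurr1 and required for midbrain dopamine neurons, had 58, 272, 4 and 8 counts, that is 1.36, 6.45, 0.0920 and 0.187 CPM. It was far higher in both D1 libraries, and its D2 intervals overlapped each other. Each of the 7 genes lies on a chromosome of its own, and no other annotated gene overlapped any of them in GENCODE M21, whose build need not be the one the authors used.

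**Figure D1:**
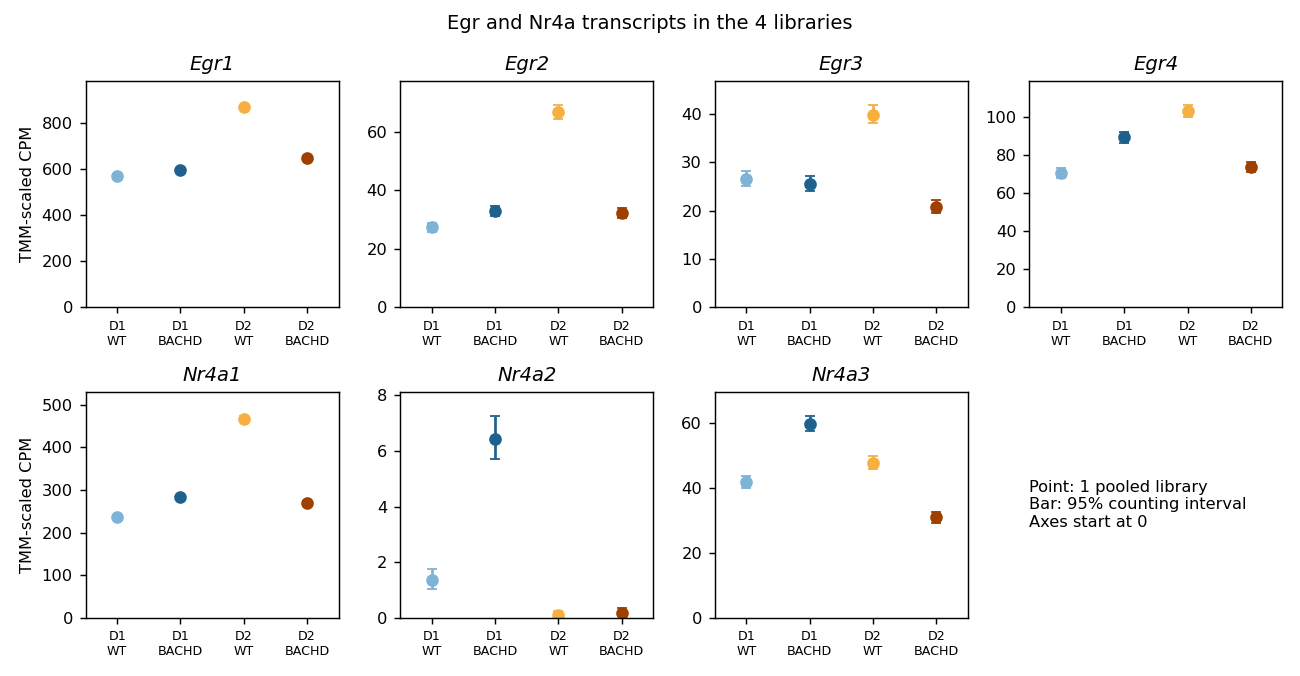
Level of each gene (y axis, TMM-scaled CPM, starting at 0) in the 4 pooled libraries (x axis), with the 95% counting interval as a bar. Egr1, Egr2, Egr3, Egr4 and Nr4a1 were highest in D2 WT, and Nr4a2 and Nr4a3 in D1 BACHD.

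The D2 WT library was the highest of the 4 for 5 of 7 genes. Among all 13400 genes tested 20.9% were highest there, as were 22.6% of the 9475 averaging 10 CPM or more.

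In D2 neurons, 6 of the 7 genes stood lower in BACHD than in WT. Egr2 was lowest relative to WT, with a log2 ratio of -1.06 (95% counting interval -1.15 to -0.96), that is 2.08-fold lower. Egr3 stood 1.92-fold lower (-0.94, -1.06 to -0.83), Nr4a1 1.74-fold lower (-0.80, -0.83 to -0.77) and Nr4a3 1.55-fold lower (-0.63, -0.73 to -0.53). These 4 genes passed the rule of size, a ratio of at least 1.5 with an interval that excludes 1, which 1.14% of all genes passed in this direction and 0.369% of those averaging 10 CPM or more. As higher, 0 of the 7 passed, against 1.38% of all genes. Egr4 (1.40-fold lower, -0.48) and Egr1 (1.34-fold lower, -0.42) also had intervals below 1, as 18.5% of all genes did. Nr4a2 had 4 and 8 counts, and its interval (-0.88 to 3.20) included no difference, and so 0 had an interval above 1 against 18.6% of all genes. The median log2 ratio over the 7 genes was -0.63, and over all genes tested 0.01.

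In D1 neurons Egr1, Egr2, Egr4, Nr4a1 and Nr4a3 differed by genotype less than in D2 neurons and in the other direction. Egr3 also differed less in D1 neurons, but not in the other direction. Nr4a2 had a larger ratio in D1 than in D2 neurons, where its counts were few. Nr4a3 stood 1.43-fold higher in BACHD (log2 ratio 0.52, 0.43 to 0.60), Egr4 1.27-fold (0.34, 0.27 to 0.41), Egr2 1.20-fold (0.27, 0.15 to 0.38) and Nr4a1 1.20-fold (0.26, 0.22 to 0.30). Egr1 differed by 1.05-fold (0.07, 0.05 to 0.10), and the interval of Egr3 (-0.06, -0.18 to 0.06) included no difference. None of these 6 passed the rule of size. Nr4a2 alone passed it, at 4.75-fold (2.25, 1.83 to 2.68), against 2.51% of all genes passing as higher, and 0 passed as lower, against 1.17%. Intervals above 1 were held by 6 of the 7 genes and by 20.3% of all genes, and intervals below 1 by 0 of the 7 and 21.5% of all genes. The median log2 ratio was 0.27 over the 7 genes and 0.00 over all genes tested.

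**Figure D2:**
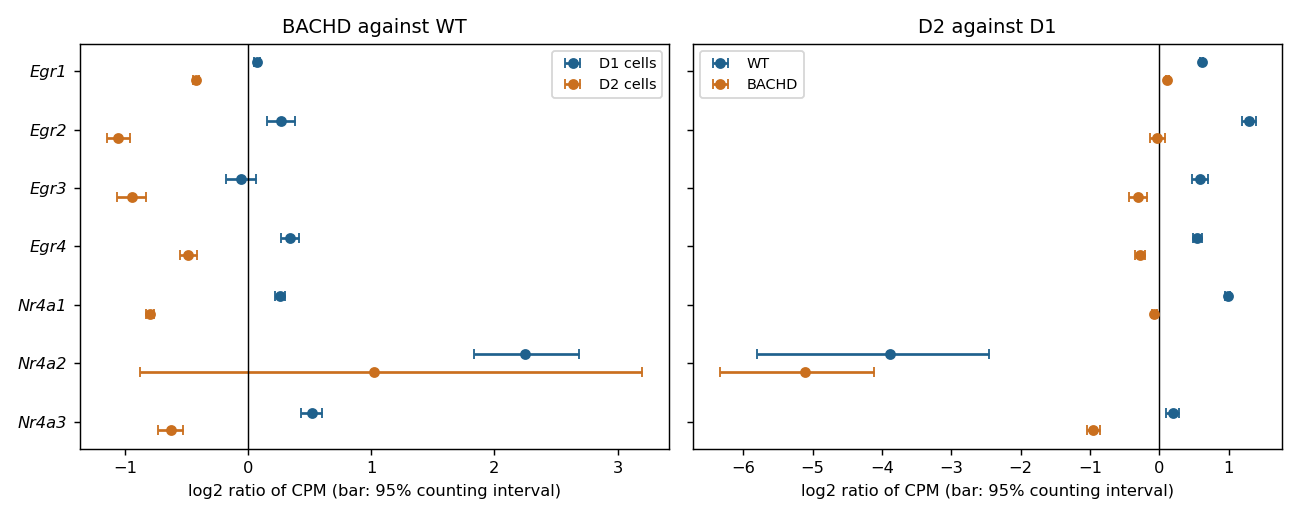
Log2 ratios of CPM for each gene with 95% counting intervals, for BACHD against WT in D1 and D2 cells (left) and for D2 against D1 cells in WT and BACHD (right). In the left panel the D2 values of 6 genes lie between -1.06 and -0.42, and in the right panel the WT values of the same 6 genes lie between 0.19 and 1.29. The panels are built from the same 4 libraries.

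Egr1, Egr2, Egr4, Nr4a1 and Nr4a3 were higher in D1 BACHD and lower in D2 BACHD than in the matching WT library, with both intervals excluding 1. This held for 2.21% of all genes and for 2.84% of those averaging 10 CPM or more. The D2 minus D1 difference of the log2 ratios was -1.32 for Egr2 (95% counting interval -1.47 to -1.18), -1.14 for Nr4a3, -1.06 for Nr4a1, -0.89 for Egr3, -0.82 for Egr4 and -0.49 for Egr1. A difference at or below -0.5 with an interval below 0 was found for 5 of the 7 genes and for 3.02% of all genes, or 0.939% of those averaging 10 CPM or more. The difference rests on 1 pool per group and was not tested.

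The comparison of the pathways differed by genotype in the same values. In WT, D2 neurons held 2.45-fold more Egr2 than D1 neurons (log2 ratio 1.29, 1.19 to 1.39), 1.98-fold more Nr4a1 (0.99), 1.53-fold more Egr1 (0.61) and 1.501-fold more Egr3 (0.59), the last just past the limit of 1.5. These 4 passed the rule of size, as did 4.07% of all genes in this direction and 2.31% of those averaging 10 CPM or more. With total counts as the scale 2 of the 4, Egr2 and Nr4a1, passed, as did 3.36% of all genes. Egr4 (0.55) and Nr4a3 (0.19) also had intervals above 1, as 23.5% of all genes did. Nr4a2 alone met the rule as lower (-3.88), as 6.43% of all genes did, and nothing is read from this because it entered the tested genes through the D1 libraries. In BACHD, 0 genes passed as higher in D2 neurons, where 3.45% of all genes passed, and the ratio of Egr2 (-0.03, -0.14 to 0.08) included no difference. Egr3 (-0.30), Egr4 (-0.28) and Nr4a1 (-0.07) stood lower in D2 than D1 BACHD, Egr1 slightly higher (0.12), and Nr4a3 1.93-fold lower (-0.95). Nr4a3 passed the rule of size as lower, as 6.42% of all genes did, and Nr4a2 (-5.11) met it with the same limit as in WT. The summed level of the 7 genes was 972 CPM in D1 WT and 1593 CPM in D2 WT, but 1094 CPM in D1 BACHD and 1074 CPM in D2 BACHD. These comparisons share their libraries with the comparisons by genotype and are not independent of them.

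The fit with terms for cell type and genotype over all 4 libraries treats a change common to both cell types as the effect, and its 1 residual degree of freedom is the difference between the cell types. For the genotype term, edgeR's quasi-likelihood test called 1 of the 7 genes, Nr4a2, higher in BACHD by 2.12 ± 0.30 (log2, SE; adjusted p = 0.0351, n = 2 pools each, 1 per cell type), against 0.157% of all genes called higher, and 0 as lower against 0.284%. The D2 pools held 4 and 8 Nr4a2 counts, so this value rests mostly on the D1 pair of 58 and 272 counts. Each group was 1 pool, so the SE does not measure the spread between pools of a group. At an unadjusted p under 0.05 edgeR passed 2 of the 7, Egr3 and Nr4a2, and 13.4% of all genes. Egr3, with a log2 change of -0.50 ± 0.17 (edgeR unadjusted p = 0.0212, adjusted p = 0.279), stood below WT in both cell types, though its D1 interval included no difference. The other 5 had log2 changes of -0.42 to -0.04 with edgeR adjusted p of 0.507 to 0.9499. The DESeq2 Wald test called 0 of the 7 genes, with an unadjusted p of 0.00155 and an adjusted p of 0.167 for Nr4a2. With D1 BACHD left out and genotype as the single term the Nr4a2 value was -1.94. That fit sets D2 BACHD alone against the WT pools of both cell types. Its sign thus follows the cell type, and nothing about genotype is read from it.

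For the cell type term, Egr1 was higher in D2 cells by 0.36 ± 0.10 (log2, edgeR adjusted p = 0.0494). The fitted log2 change of Nr4a2 was -4.73 ± 0.35, given as a description since its inclusion fixed the direction. In D2 cells 6.81% of all genes were called higher and 10.2% lower, and 29.3% passed an unadjusted p under 0.05. The Egr1 call was lost with total counts as the scale (adjusted p = 0.0507), with DESeq2 (0.690) and with no genotype term (0.124). It was also lost in edgeR without a filter (adjusted p = 0.282) and with limma-trend on FPKM (adjusted p = 0.156). Egr2 (0.64 ± 0.25) and Nr4a1 (0.46 ± 0.20) had edgeR adjusted p of 0.131 and 0.178. Fits on cell type alone with a library left out hold 1 pool in a group and no genotype term, so only their sizes are given. The log2 change of Egr1 was 0.58 without D2 BACHD, 0.15 without D2 WT, 0.42 without D1 BACHD and 0.34 without D1 WT. For Egr2 these values were 1.15, 0.10, 0.86 and 0.59. The fit without D2 BACHD sets D2 WT alone against both D1 libraries, and so restates the high D2 WT value.

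Nr4a2 was highest in D1 BACHD, as were the 8 listed cortical glutamatergic markers. In striatal preparations Nr4a2 is also a known marker of neighbouring cells, the neurons of the claustrum and the deepest cortical layer. Slc17a7, a vesicular glutamate transporter gene of cortical excitatory neurons, had 768, 3593, 29 and 37 counts. There were 7.55 Nr4a2 counts per 100 Slc17a7 counts in D1 WT (95% interval 5.68 to 9.87) and 7.57 in D1 BACHD (6.67 to 8.57), so both transcripts differed by genotype in the same proportion. In D2 cells the ratio was 13.8 (3.52 to 39.3) in WT and 21.6 (8.70 to 47.2) in BACHD, from few counts. All 8 listed cortical markers stood above their D1 WT level in D1 BACHD, by a summed 4.87-fold, and Emx1, one of them, was at 0 counts in D1 WT. Hs3st2, a heparan sulfate sulfotransferase gene, differed from the others of the list in D2 cells, with 64, 438, 75 and 147 counts, and made up most of the D2 sums. Among 8 measured markers of claustrum and deepest cortical layer, Ccn2 stood at 0.281 and 1.04 CPM and Cplx3 at 0.421 and 1.35 CPM in D1 cells (WT, then BACHD), while Gnb4 (59.9 and 42.2 CPM) and Nxph4 (6.29 and 5.33 CPM) stood lower in D1 BACHD. Of the 8, 5 stood higher (Fezf2, Ntng2 and Lxn besides the first 2) and 3 lower (Tle4 besides the last 2) in D1 BACHD. Their summed level of 219.9, 198.8, 206.6 and 190.9 CPM was mostly Tle4 and Gnb4. Bdnf, a neurotrophin gene induced by activity and made mainly by cortical afferents of the striatum, had 29, 146, 0 and 1 counts. Of the dopamine neuron genes that Nr4a2 is known to regulate, Th stood at or below 0.933 CPM in every library, Slc6a3 had 2, 0, 0 and 0 counts, and Ddc had 28, 20, 85 and 59 counts. Slc18a2, the vesicular monoamine transporter gene, was the most abundant at 11.3, 12.3, 10.8 and 10.3 CPM. The dopamine neuron markers En1 and Pitx3 had 0 counts throughout. The part of cortical RNA in the values of Nr4a2, or of the other Egr and Nr4a genes, was not tested. In bulk libraries more cells of a type and more RNA per cell cannot be told apart.

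**Figure D3:**
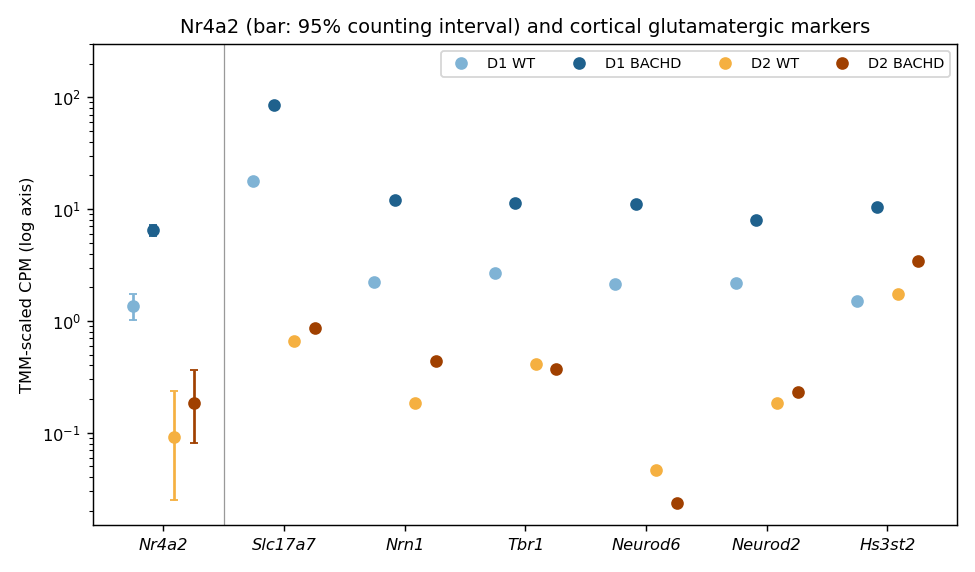
Level of Nr4a2, with its 95% counting interval, and of 6 cortical glutamatergic markers (y axis, TMM-scaled CPM on a log axis) in each library (colour). All 7 genes were highest in D1 BACHD. All but Hs3st2 were next highest in D1 WT and below 1 CPM in both D2 libraries, where Hs3st2 stood at 1.73 and 3.43 CPM.

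Genes were ranked by how closely their levels followed those of the members. Likeness was the root mean square difference over the 4 libraries of log2 CPM centred on each gene's mean, taken against the median profile of the 6 members averaging 10 CPM or more, and was computed for 9469 other genes. The nearest was Midn (0.02), which encodes midnolin, a protein that delivers activity-induced transcription factors to the proteasome and stood at 40.8, 45.9, 65.8 and 41.9 CPM. Next came Jun (0.05), Gm15832 (0.07), Junb (0.08), the phosphatase gene Dusp14 (0.08), Dusp1 and Dusp6, which encode phosphatases of MAP kinases (0.09 and 0.10), and Ovca2 (0.10). The median over all genes compared was 0.29. The nearest to Nr4a2 among genes averaging 1 CPM or more were Nrn1 (0.15), Neurod2 (0.18), Prss12, which encodes the synaptic protease neurotrypsin (0.19), and Tbr1 (0.27), with a median of 2.02 over all genes. With 4 libraries this likeness is a description.

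Other immediate early genes, from a list chosen with earlier results known, were also often highest in D2 WT, 14 of 21 tested against 20.9% of all genes, with differing orders of the other libraries. The list held 26 genes. In D1 cells 21 of 21 stood higher in BACHD (median log2 ratio 0.34), as did 6767 of all 13400 genes (median 0.00), and 5 passed the rule of size against 2.51% of all genes. In D2 cells 18 stood lower, as did 6351 of all genes (median -0.50, 0.01 over all genes), and 10 passed against 1.14%. In 14 of the 21 both intervals excluded 1 in those directions, against 2.21% of all genes. Fos, an AP-1 subunit gene, stood at 30.8, 48.9, 85.5 and 41.2 CPM, and Arc, which encodes a synaptic plasticity protein and is an Egr target, at 303.9, 451.1, 759.5 and 460.1 CPM. Fos and Arc thus shared the high D2 WT value, and their D1 differences were larger than that of Egr1. Jund, an AP-1 gene with steady expression, stood at 115.7, 124.9, 123.5 and 128.9 CPM and Ier5 at 68.8, 79.7, 81.4 and 83.2 CPM, without the high D2 WT value. By the genotype term edgeR called 0 of the 21, against 0.157% of all genes higher and 0.284% lower. At an edgeR unadjusted p under 0.05 stood 0, against 13.4%. Genes that differ opposite ways in the cell types get a large residual in this fit. Its counts of 0 therefore do not show that the listed genes were alike by genotype. By the cell type term Npas4 (0.42 ± 0.11) and Per1 (0.37 ± 0.10) were called higher in D2 cells (6.81% of all genes). Homer1 (-0.36 ± 0.10) and Ier3 (-0.74 ± 0.20) were called lower there (10.2%).

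**Figure D4:**
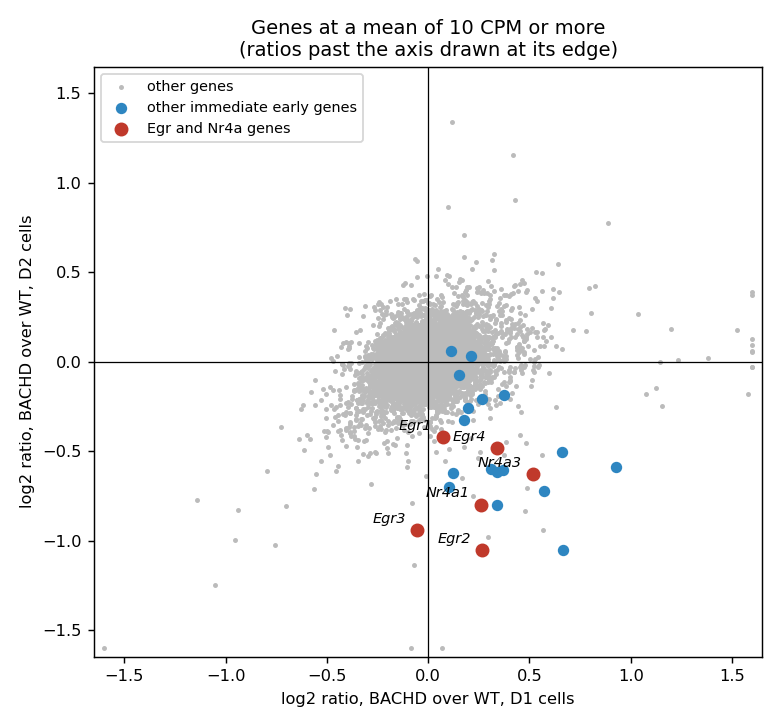
Log2 ratio of BACHD over WT in D1 cells (x axis) against D2 cells (y axis) for genes averaging 10 CPM or more. The 6 Egr and Nr4a genes in this range lie below 0 on the y axis, from -1.06 to -0.42, and between -0.06 and 0.52 on the x axis.

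The regulators around these families mostly differed less. Nab1 and Nab2 encode corepressors that bind Egr proteins, and Nab2 is itself an Egr target. Nab2 stood at 144.5, 154.9, 154.1 and 151.4 CPM and Nab1 at 8.07, 7.16, 6.69 and 5.71 CPM, with no high value in D2 WT. The retinoid X receptors are partners with which Nr4a1 and Nr4a2 form heterodimers. Rxrg, the form enriched in striatum, stood at 300.7, 294.8, 307.7 and 290.7 CPM, and Rxrb at 104.6, 113.2, 105.7 and 106.5 CPM. Rxra stood at 27.7, 30.9, 25.0 and 24.4 CPM, with a D2 over D1 log2 ratio of -0.34 in BACHD (-0.46 to -0.22). Of the 2 corepressor and 3 receptor genes 0 passed the rule of size in any of the 4 comparisons, against 1.14% to 6.43% of all genes by direction. By the genotype term edgeR called 0, against 0.157% higher and 0.284% lower. At an edgeR unadjusted p under 0.05 stood 0, against 13.4%. With so few genes, counts of 0 say little beside these shares. By the cell type term edgeR called 0, and Nab1 and Rxra had an unadjusted p under 0.05, as did 29.3% of all genes.

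Upstream, Srf, the serum response factor gene, stood at 93.1, 105.5, 120.0 and 113.3 CPM. It was the 1 of 6 SRF and Elk pathway genes with both genotype intervals in the directions of the members (2.21% of all genes). The median log2 ratio of the 6 was 0.12 in D1 cells, where 5 stood higher, as did 6767 of all 13400 genes. In these cells 4 intervals lay above 1 (20.3% of all genes) and 1 below (21.5%). In D2 cells the median was -0.05, and 4 stood lower, as did 6351 of all genes. There 2 intervals lay below 1 and 2 above, against 18.5% and 18.6% of all genes. The medians of the 8 CREB pathway genes were -0.01 in D1 and -0.02 in D2 cells, of the 3 MEF2 genes -0.02 and -0.08, and of the 11 kinase genes -0.05 and -0.01. By the genotype term edgeR called 0 of these 28 upstream genes, against 0.157% of all genes higher and 0.284% lower. At an edgeR unadjusted p under 0.05 stood 4, near the 13.4% of all genes. By the cell type term it called 3 kinase genes, with Rps6ka4 higher (0.61 ± 0.05, as 6.81% of all genes) and Rps6ka5 (-0.44 ± 0.05) and Mapk3 (-0.21 ± 0.05) lower (10.2%) in D2 cells. Rps6ka4 and Rps6ka5 encode the nuclear kinases MSK2 and MSK1, which phosphorylate CREB and histone H3.

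Later activity-dependent genes did not share the pattern in their medians. Of 11 listed 9 were tested, with median log2 ratios of -0.05 in D1 and -0.08 in D2 cells. Vgf and the D1 marker gene Pdyn, 2 of the 9, had intervals above 1 in D1 and below 1 in D2 cells, against 2.21% of all genes. Pdyn had only 38 and 19 counts in D2 cells. In D1 cells 4 of the 9 intervals lay above 1 and 3 below, against 20.3% and 21.5% of all genes. In D2 cells 1 lay above and 5 below, against 18.6% and 18.5%. Vgf, which encodes a secreted peptide precursor, stood at 245.6, 265.3, 250.6 and 209.4 CPM. Nptx2, which encodes a neuronal pentraxin, stood at 25.0, 36.0, 21.6 and 21.9 CPM. By the genotype term edgeR called Nrn1 of this list as higher (2.25 ± 0.25), against 0.157% of all genes. Nrn1 is also a listed cortical marker. The D2 pools held 8 and 19 Nrn1 counts, so this value rests mostly on the D1 pair of 96 and 505 counts. Of 7 listed dopaminergic targets of Nr4a2 3 were tested, with medians of -0.09 and -0.38. EdgeR called 0 of them by genotype, against 0.157% of all genes higher and 0.284% lower. At an edgeR unadjusted p under 0.05 stood 0, against 13.4%, and so few genes say little beside these shares.

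Some markers of other cells and of cell stress moved with the libraries that were high in these genes, and others did not. The 5 endothelial markers had a summed level of 1.78, 2.42, 5.64 and 3.33 CPM, and so were also highest in D2 WT. Cdh5 had 3, 7, 25 and 8 counts and Pecam1 had 10, 10, 41 and 16 counts. Of the 5 only 1, Flt1, reached the minimum of the genes tested. The 7 heat shock chaperone genes summed to 1639, 1612, 1821 and 1595 CPM, with the highest sum in D2 WT, and with a D2 to D1 ratio of 1.11 in WT against 1.64 for the Egr and Nr4a genes. The sum is mostly Hspa8, Hsp90aa1 and Hsph1. Of the 6 tested, 3 were highest in D2 WT and 3 in D1 WT, among them the stress-inducible Hspa1a (2.04, 1.07, 1.68 and 1.17 CPM) and Hspa1b (9.10, 7.08, 8.95 and 8.65 CPM). The 6 astrocyte markers summed to 124.0, 172.0, 166.5 and 164.8 CPM, the lowest sum being in D1 WT, where 5 of the 6 but not Gfap were lowest, and the 7 microglia markers summed to 33.8, 36.3, 37.9 and 45.5 CPM. The 9 shared striatal neuron markers summed to 12950, 11949, 14599 and 13256 CPM. The 9 interneuron markers summed to 17.8, 23.2, 2.69 and 3.33 CPM, and so were higher in both D1 libraries. The 7 oligodendrocyte markers summed to 313.1, 362.8, 337.0 and 401.0 CPM, with the highest sum in D2 BACHD, as for microglia. The 4 oligodendrocyte precursor markers (2.92, 3.25, 2.35 and 3.12 CPM) and 4 pericyte markers (6.25, 6.99, 6.83 and 6.97 CPM) were highest in D1 BACHD. The part of these in the values of the Egr and Nr4a genes was not tested. Handling of a pool and its genotype cannot be told apart, since each group was 1 pool.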

How the data were processed

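Per the series' design text, 4 pools of sorted neurons were sequenced as paired 50-base reads. The submitters' processing notes name CASAVA 1.8.2. An aligner, counter, strand setting, annotation or genome build is not given in the sources used here, so reads shared with paralogs or antisense transcripts are of uncertain assignment. The authors deposited estimated counts per Ensembl gene (19.4% of values not whole) and FPKM values for the same genes. Columns were matched to samples by title.

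Estimated counts were rounded. Symbols were matched for 32897 identifiers. Genes with at least 1 CPM in 2 libraries were kept, and libraries were scaled by TMM. Ratios have exact conditional binomial 95% intervals, counts under 3 being set to 3. The interval of a difference of log2 ratios uses the normal approximation. The genotype and cell type terms were tested together in edgeR 4.0.16 (quasi-likelihood, R 4.3.3) with Benjamini-Hochberg adjustment over all 13400 genes and a median of 6.67 prior degrees of freedom. SE is the absolute log2 change divided by the square root of F. Likeness used log2 of CPM plus 0.1. DESeq2 1.42.0 and limma 3.58.1 were alternatives. The steps were tested on simulated data. Members, gene lists and alternatives were chosen with earlier results of these data known. From each list, genes among the 6 highest in mean CPM or the 4 with the largest ratios could be named, and those a test called. Exceptions named after their values were seen are Ier5, Bdnf, Cdh5, Pecam1, the heat shock genes, Gfap and the markers beside Nr4a2. Some genes that this rule would name are not reported here.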

Additional observations from a re-analysis of the deposited data

Results flagged for a closer look

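For 5 genes the genotype difference pointed opposite ways in the cell types, with the single D1 BACHD library above and the single D2 BACHD library below its WT library. The D2 minus D1 difference of log2 ratios was -1.32 for Egr2, -1.14 for Nr4a3, -1.06 for Nr4a1, -0.82 for Egr4 and -0.49 for Egr1. The difference was not tested, since each group was 1 pool. The D1 ratio of Egr1 was 1.05-fold, the smallest of the 5, and the D1 ratio of Nr4a3 was 1.43-fold, the largest. The summed endothelial and heat shock markers were also highest in D2 WT, although 3 of 6 tested heat shock genes were highest in D1 WT. Of the 5 endothelial markers only 1 was among the genes tested. The summed interneuron, oligodendrocyte and microglia markers were not highest in D2 WT. The summed astrocyte markers were lowest in D1 WT, although Gfap was not. The summed cortical glutamatergic markers were 4.87-fold higher in D1 BACHD than in D1 WT. The part of all these markers in these differences was not tested.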

How the results depend on the processing

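No direction of a member with an interval excluding 1 turned under another scaling or with FPKM. The count of members up in D1 and down in D2 was 5 under every scaling and filter tried. FPKM gives no counting interval, so there the rule takes the sign alone (5 members, but 17.3% of all genes against 2.21%), and the rule of size the ratio alone. Of members lower in D2 BACHD, 4 in the main setting, 1 passed at a ratio of 2 (0.306% of all genes). Of members higher in D1 BACHD, 1 in the main setting, 3 passed at the lower ratio tried (5.97% of all genes). With a filter of 10 CPM, which removes Nr4a2, 0 passed as higher in D1 BACHD (0.354% of the genes kept). Of the 4 members higher in D2 than D1 WT, 2 passed with total counts (3.36% of all genes) and with total counts without mitochondrial genes (3.8%). With FPKM plus 0.1 (3.17%) or 1 (1.99%) also 2 passed, and 1 at a ratio of 2 (1.66%). The 1 member lower in D2 than D1 WT became 0 with FPKM plus 1 (3.83% of all genes) and with the 10 CPM filter (2.98%). The 2 members lower in D2 than D1 BACHD became 1 at a ratio of 2 (3.39%) and with that filter (3.05%). Total counts lower the median D2 to D1 log2 ratio of all genes from -0.01 to -0.08 in WT. No call is read from the fits without a library, which leave 1 pool in a group and hold 1 term. The genotype call of Nr4a2 was lost (0 calls) without a filter, with 10 CPM, with genotype as the only term, with DESeq2 and with limma-trend. In these fits 0 of all genes were called except with DESeq2 (77) and 10 CPM (42), against 59 in the main fit, and 1595, 382 and 1712 passed an unadjusted p under 0.05 without a filter, with 1 term and with limma-trend. Total counts called 143. Cell type calls, 2 in the main fit, were 1 with total counts, no filter, 10 CPM, 1 term, DESeq2 and limma-trend. The 1 call was Egr1 with 10 CPM, which removes Nr4a2 (edgeR adjusted p = 0.0426), and Nr4a2 in the others. Over all genes cell type calls numbered 2274, against 810 without a filter, 1330 with DESeq2 and 1449 with 1 term. No paired analysis was possible because each group has 1 pool. Depth limits Nr4a2 in D2 cells. Other causes were not tested.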
